A study of Caenorhabditis elegans with 2 samples.

Results

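The UDP-glucuronosyltransferases of Caenorhabditis elegans are enzymes encoded by genes whose symbols start with ugt-. All protein-coding genes with such a symbol on chromosomes I to V and X were taken as members, which gave 67 of 19973 protein-coding genes. Binding of the nuclear hormone receptor NHR-20 near them was read from chromatin immunoprecipitation followed by sequencing (ChIP-seq), in which DNA fragments bound to a protein are pulled down with an antibody and sequenced. The worms were hermaphrodites of strain OP515, genotype unc-119(tm4063) III; wgIs515, which carry an inserted nhr-20 transgene whose product ends in GFP and FLAG tags, and the antibody recognised GFP. Whole L1 larvae were taken 6 hours past synchronization as starved L1 animals hatched after bleaching, as 2 biological replicates of 1 group. Both replicates were compared by the authors with the same control alignment, and immunoprecipitates from untagged worms were not analysed here. The inserted transgene adds copies of nhr-20 to those of the genome, so the level of tagged receptor need not be that of the native protein. Since whole larvae were used, a site bound strongly in few cells and a site bound weakly in many cannot be told apart.

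Enzymes of this family transfer a sugar, in mammals typically glucuronic acid, from a UDP-sugar to small lipophilic molecules, which makes these more soluble and easier to excrete. The reaction belongs to the conjugation phase of detoxification, downstream of the oxidation carried out by cytochromes P450. In nematodes many family members lie in tandem groups, the intestine is a main site of detoxification, and nuclear hormone receptors are DNA-binding transcription factors, several of which act on detoxification and lipid genes.

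The authors deposited 30000 candidate regions for the pooled replicates and for each replicate. Their thresholded list of 6423 regions, kept after an analysis of the irreproducible discovery rate, equals the pooled candidates of highest signal. By its label, the pooled candidate list holds both peaks and background given to that analysis. A candidate below the threshold therefore does not by itself show binding. Signal is the value the authors' caller gave a region, without a unit. It ranged from 85.96 to 2711 in the thresholded list and from 17.44 upward among pooled candidates. All thresholded regions share the highest deposited −log10 q-value, 4.18, so that value cannot rank them. A summit is the highest point of a region. The promoter window of a gene was set to reach 1000 bp before and 300 bp past each of its annotated starts, and summits inside it were given to that gene. Read totals were not in the lists, so depth is unknown. With 1 group there was no contrast between samples, and counts of members are set beside the same counts over all genes without a test.

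Of the 67 ugt genes, 23 had a thresholded summit in the promoter window, or 34.3% with an exact binomial (Clopper-Pearson) 95% interval of 23.2 to 46.9%, which covers counting error only. The share over all protein-coding genes was 20.6%, or 4121 of 19973. A candidate of any strength, from the list that includes background, was present in the windows of 54 ugt genes, 80.6%. The share over all genes was 47.2%. Another 31 members therefore had candidates below the threshold only, and 13 had none. Among genes with a candidate, the share with a thresholded summit was 42.6% for ugt genes and 43.7% for all genes. The members thus stood above the background in having a candidate. They were close to it in how often a gene with a candidate had a thresholded summit. The 23 members shared 22 summits, since ugt-9 and ugt-11 had the same summit, and 0 members had more than 1 thresholded summit in the window.

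The DNA under 10 of the summits is shown first, for the 8 of highest signal and for ugt-16 and ugt-19 as examples of weaker summits that hold motifs described further on. Each line gives the 121 bases centred on the summit, ended earlier where an annotated UTR begins, and read from the RefSeq copy of the WBcel235 (ce11) genome on the strand of the gene, 5′ to 3′. Capitals mark TGATAA, the core recognised by GATA factors, and CTGCGTC, a string that was noticed in these sequences after they had been read, each on either strand.
ugt-20: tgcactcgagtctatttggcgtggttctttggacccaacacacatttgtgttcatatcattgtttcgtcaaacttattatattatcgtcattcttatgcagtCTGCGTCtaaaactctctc
ugt-13: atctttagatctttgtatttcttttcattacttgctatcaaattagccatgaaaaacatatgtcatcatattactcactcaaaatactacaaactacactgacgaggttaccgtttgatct
ugt-64: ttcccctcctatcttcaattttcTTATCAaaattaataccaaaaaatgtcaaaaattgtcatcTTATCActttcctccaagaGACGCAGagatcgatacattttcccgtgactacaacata
ugt-58: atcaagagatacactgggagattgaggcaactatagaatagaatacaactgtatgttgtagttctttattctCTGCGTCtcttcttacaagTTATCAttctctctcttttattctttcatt
ugt-49: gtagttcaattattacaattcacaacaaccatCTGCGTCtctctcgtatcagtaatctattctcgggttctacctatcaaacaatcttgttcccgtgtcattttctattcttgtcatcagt
ugt-9: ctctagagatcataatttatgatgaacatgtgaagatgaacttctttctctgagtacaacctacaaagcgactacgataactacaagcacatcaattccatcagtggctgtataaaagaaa
ugt-50: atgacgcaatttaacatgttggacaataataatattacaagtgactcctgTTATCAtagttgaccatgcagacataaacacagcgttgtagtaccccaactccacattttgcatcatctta
ugt-61: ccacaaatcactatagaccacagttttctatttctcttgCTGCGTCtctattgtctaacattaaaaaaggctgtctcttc
ugt-16: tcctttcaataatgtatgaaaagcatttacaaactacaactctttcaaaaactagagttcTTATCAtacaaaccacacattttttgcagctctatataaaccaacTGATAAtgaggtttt
ugt-19: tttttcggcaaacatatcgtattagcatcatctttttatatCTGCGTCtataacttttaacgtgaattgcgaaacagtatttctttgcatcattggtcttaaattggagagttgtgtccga
These windows lie at chrIV:6083816-6083936 for ugt-20, chrV:4908695-4908815 for ugt-13, chrV:3505885-3506005 for ugt-64, chrII:9586948-9587068 for ugt-58, chrV:10371308-10371428 for ugt-49 and chrV:4895910-4896030 for ugt-9. The window of ugt-50 lies at chrX:12691445-12691565, that of ugt-61 at chrV:4742342-4742421, that of ugt-16 at chrV:12824904-12825023 and that of ugt-19 at chrIV:6080043-6080163. ugt-13, ugt-49, ugt-9, ugt-50, ugt-61 and ugt-16 are on the plus strand, and the other 4 are on the minus strand.

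**Figure D1:**
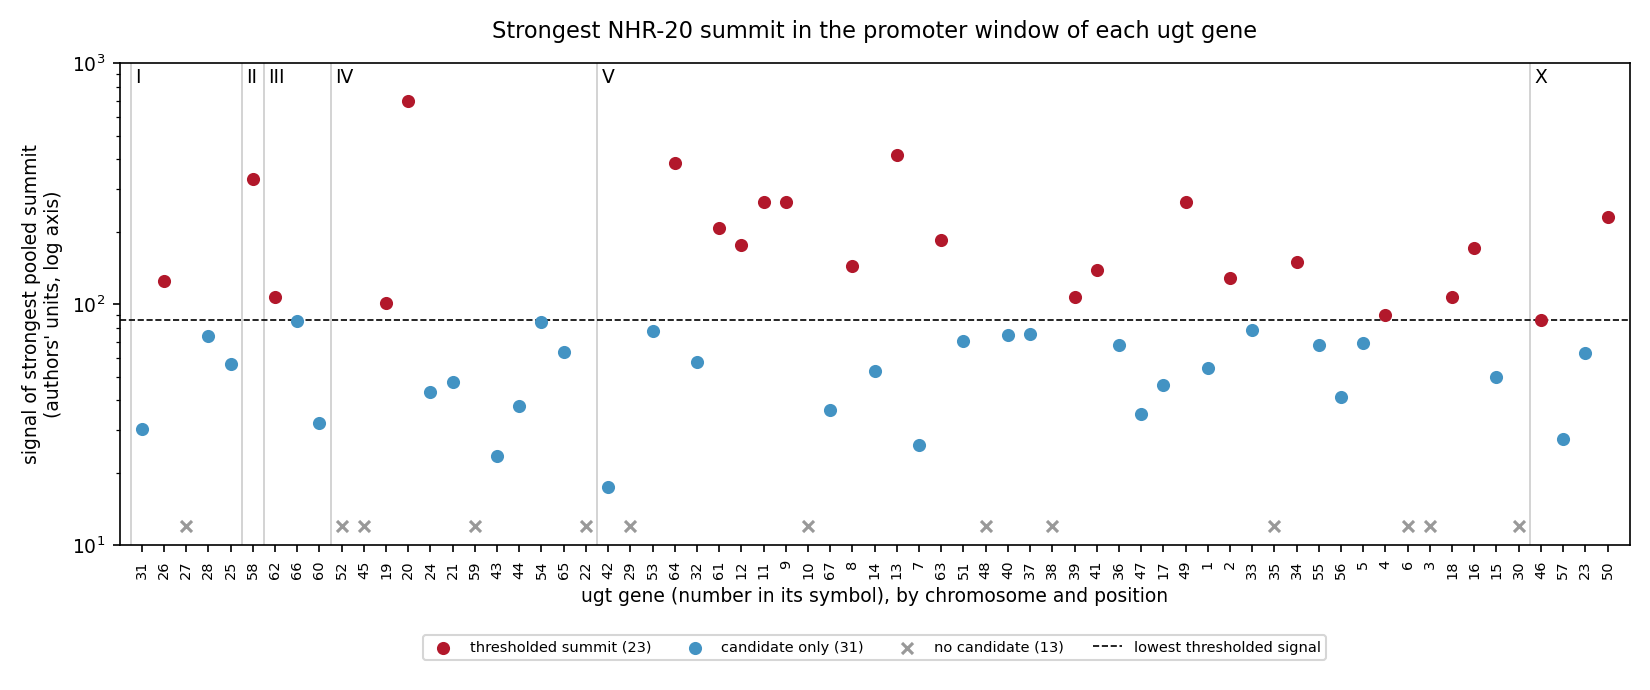
Signal of the strongest pooled summit in the promoter window of each of the 67 ugt genes, on a log axis in the authors' units. Genes are ordered by chromosome and position, crosses at the bottom mark the 13 genes without a candidate and carry no value, and the dashed line marks the lowest thresholded signal, 85.96. The 23 red points run from 86.1 at ugt-46 to 696.9 at ugt-20.

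The strongest summit of the family belonged to ugt-20, on the minus strand of chromosome IV. It had a pooled signal of 696.9, rank 303 of the pooled list, and lay 276 bp upstream of the start in intergenic DNA. Its rank was 308 in replicate 1, with a signal of 431.9, and 320 in replicate 2, with a signal of 261.6. Signals of separately called lists are not on 1 scale, so replicates are compared by rank, and by rank ugt-20 stood in nearly the same place in both.

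The next summit, at ugt-13, had a pooled signal of 414.5 and lay 129 bp upstream of the start. It ranked 727 in replicate 1 (signal 294.0) and 1251 in replicate 2 (signal 124.6). ugt-64 followed with a pooled signal of 385.4, ranks 868 and 1373 and replicate signals of 265.7 and 117.2. The ugt-64 summit lies in an intron of that gene, 249 bp upstream of an internal start and 407 bp downstream of the outermost of its 4 annotated starts, so it is within the window only through the internal starts. At ugt-58, the only ugt gene of chromosome II, the summit lay 224 bp upstream with a pooled signal of 332.3, ranks 1080 and 1976 and replicate signals of 238.3 and 89.54. These 4 summits ranked higher than all other ugt summits in the pooled list and in replicate 1, and in replicate 2 all but ugt-58, which ranked below the summit of ugt-9 and ugt-11.

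The summit of ugt-49 had a pooled signal of 266.9 with ranks of 1472 and 2718, and lay 953 bp upstream, near the far edge of the window. The summit of ugt-9 and ugt-11, which are transcribed away from each other, had a pooled signal of 265.1 with ranks of 1966 and 1785. It lay 78 bp upstream of ugt-9 and 899 bp upstream of ugt-11, so ugt-9 was the nearer gene. At ugt-50 on chromosome X the summit lay 68 bp upstream with a signal of 231.2 and ranks of 1783 and 3195. The ugt-61 summit, 20 bp upstream, had a signal of 207.6 and ranks of 2728 and 2331. ugt-63 had a summit 117 bp upstream with a signal of 185.4 and ranks of 2706 and 3547.

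Lower pooled signals were found at 11 further summits. The first 6 were 175.7 at ugt-12, 170.9 at ugt-16, 149.8 at ugt-34, 144.3 at ugt-8, 139.1 at ugt-41 and 128.4 at ugt-2. The other 5 were 124.8 at ugt-26, 107.7 at ugt-39, 107.3 at ugt-62, 107.2 at ugt-18 and 101.0 at ugt-19. The ranks of ugt-34 (3178 and 5398) and ugt-8 (3186 and 5670) were higher in replicate 1, and those of ugt-16 (3976 and 2227) and ugt-12 (3466 and 2420) were higher in replicate 2. The ugt-12 summit, 40 bp upstream of its start, also lies in the window of T19H12.2, and the ugt-41 summit, 171 bp upstream, in that of the chemoreceptor gene srh-83.

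The weakest 2 thresholded summits were at ugt-4, with a pooled signal of 90.72, and at ugt-46, with 86.1. The 5 members just inside the threshold were ugt-46, ugt-4, ugt-19, ugt-18 and ugt-62. Just outside it were ugt-66 with a signal of 85.46, ugt-54 with 84.29, ugt-33 with 78.18, ugt-53 with 77.53 and ugt-37 with 75.41. The values on either side were adjacent, 86.1 at ugt-46 and 85.46 at ugt-66, so the threshold does not mark a gap in signal within the family.

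All 22 ugt summits were among the 6423 strongest regions of replicate 2, within 200 bp, and 18 were among those of replicate 1. The 18 found in both make 81.8%, beside 82.7% of all 3609 thresholded promoter summits. The 4 outside the strongest regions of replicate 1 were ugt-39 (ranks 7506 and 3368), ugt-18 (6500 and 4100), ugt-4 (6640 and 5942) and ugt-46 (8444 and 4291). With replicate 1 alone these 4 genes would not have been counted.

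**Figure D2:**
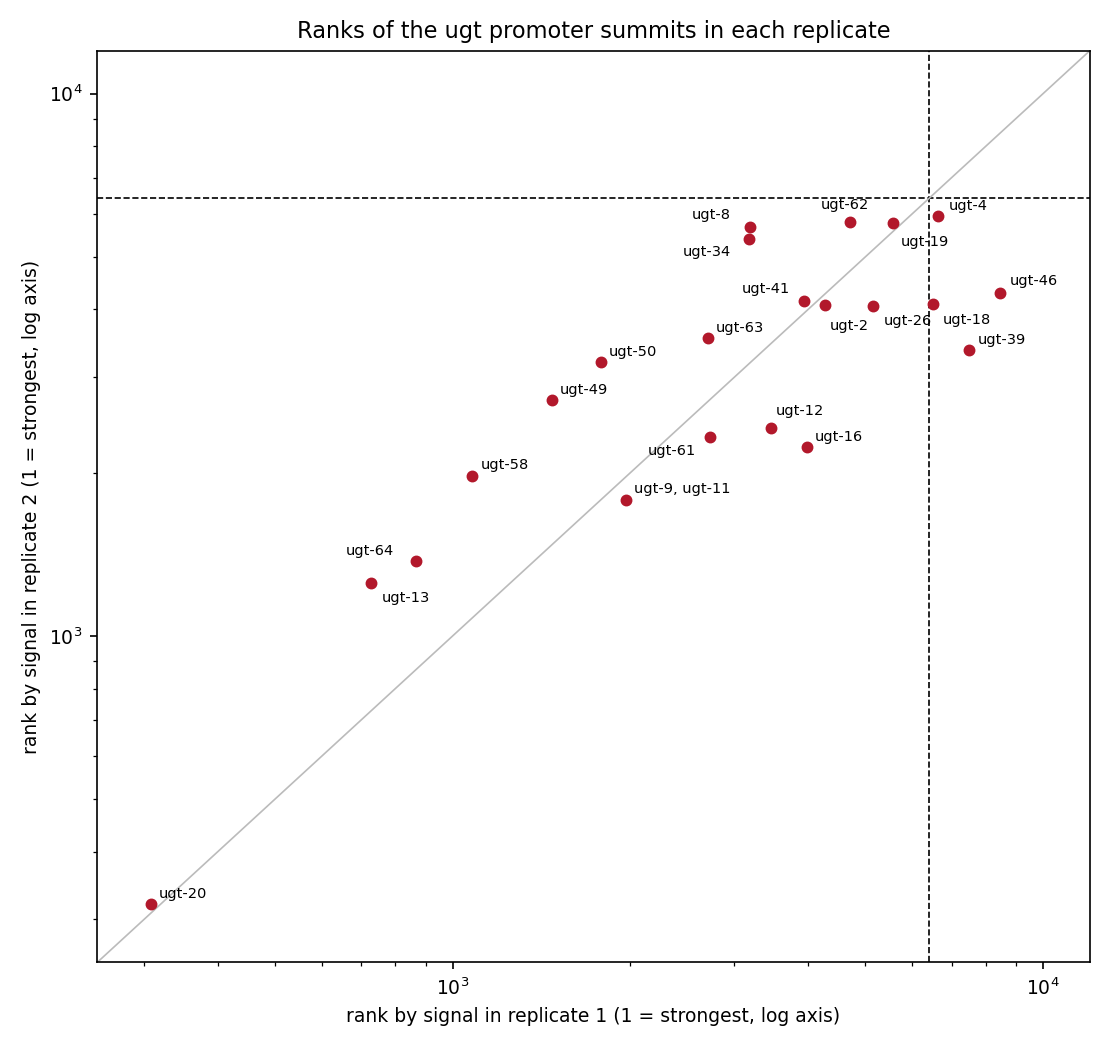
Rank by signal in replicate 1 (x axis, log) and replicate 2 (y axis, log) of the 22 thresholded ugt summits, with 1 the strongest. Dashed lines mark rank 6423 in each replicate and the grey line equal ranks. ugt-20 is at the lower left at ranks 308 and 320, and ugt-39, ugt-18, ugt-4 and ugt-46 lie to the right of the vertical line.

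As a set, the ugt summits were not among the strongest of the list. Their median signal was 160.3 beside 182.3 over all thresholded promoter summits, and 11 of 22 were above the median of the thresholded list beside 54.1% of promoter summits. The strongest 1000 regions held 2 ugt summits, 9.09% of the family's, and 17.7% of all promoter summits.

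Most ugt summits sat close to the start, and so did promoter summits over the whole list. Of all 3609, 537 lay 300 to 200 bp upstream, 881 lay 200 to 100 bp upstream and 669 in the last 100 bp. Of the 22, 19 lay within 300 bp of the start of their ugt gene, and 12 (54.5%) lay within 200 bp upstream beside 43.0% of promoter summits. Counted from the start, with negative values upstream, the median position was -140 bp beside -195 bp over all promoter summits. By annotation 16 were intergenic, 4 in a 5′ UTR, 1 in an intron and 1 in a coding exon. For 21 of 22 the nearest protein-coding start was that of a ugt gene.

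The exception was the ugt-18 summit, 924 bp upstream of ugt-18 and 550 bp from the start of ZC443.4, inside whose 5′ UTR it lies. The ugt-4 summit lies 782 bp upstream of ugt-4 in a coding exon of its neighbour ugt-6. With that of ugt-49 these were the only 3 ugt summits more than 700 bp upstream of their gene, and the assignment of ugt-18, ugt-4, ugt-49 and ugt-11 to their summits depends on the 1000 bp window. The nearest small RNA gene to any thresholded ugt summit was 1103 bp away.

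Some ugt genes held thresholded summits in the gene body beyond the window. The strongest was in an intron of ugt-2, 691 bp past the start, with a signal of 272.4, above the 128.4 of the summit in the promoter window of ugt-2. A coding exon of ugt-18 held a summit of signal 151.2, 2001 bp past the start, also above that of its window. Introns of ugt-40 and ugt-25 held summits of signal 100.8 and 90.2, at 1300 and 449 bp past the start. Both genes had only candidates in the window and are not among the 23. The remaining summit of this kind, in ugt-6, is that given to ugt-4.

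The strongest candidates of members without a thresholded summit continued without a gap below the threshold. After the 5 named above came ugt-40 with a signal of 74.88, ugt-28 with 73.67, ugt-51 with 70.14, ugt-5 with 68.87 and ugt-55 with 67.96. The weakest was ugt-42 with 17.51, near the lowest pooled candidate, and the median over the 31 was 54.62. The −log10 q-value of the ugt-42 candidate was 0.091, so the weakest candidates cannot be told from background. At the strongest, from ugt-66 to ugt-28, it was 4.18, as in all thresholded regions. From ugt-51, with 3.71, downward it was lower. In 26 of the 31 both replicates had a region of their own in the window. The same count was not made over all genes with candidates only. Whether 26 of 31 stands above the background was therefore not tested, and the count does not by itself show binding.

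The 13 members with no pooled candidate in the window were ugt-3, ugt-6, ugt-10, ugt-22, ugt-27, ugt-29, ugt-30, ugt-35, ugt-38, ugt-45, ugt-48, ugt-52 and ugt-59. At ugt-45 each replicate had a region of its own, at rank 15181 in replicate 1 and 25595 in replicate 2. Replicate 1 alone had a region at ugt-6 (rank 17033), and replicate 2 alone at ugt-29 (rank 12976) and ugt-48 (rank 16391). These ranks are far below the strongest 6423.

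Reads from repeated DNA may be lost in alignment, and whether the authors kept them is not given in the sources used here. The share of 31-base words in the window that occur once in the genome was under 90% for 9 of 67 members, 13.4%, beside 14.6% of all genes. Of these 9, 5 were among the 13 members without a candidate, 2 among the 31 with candidates only and 2, ugt-20 and ugt-64, among the 23 thresholded. The lowest share, 55.2%, was that of ugt-64, whose summit was among the strongest. The part of sequence uniqueness in the missing candidates was not tested.

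The family is concentrated on chromosome V, which holds 42 members. Of these, 16 had a thresholded summit, 38.1% with a 95% interval of 23.6 to 54.4%, beside 16.9% of all genes of that chromosome, the lowest share of any chromosome. Candidates were found at 34 of the 42, 81.0%, beside 42.1% of all genes there. On chromosome IV 2 of 12 members had a thresholded summit, beside 18.3% of all genes, and on chromosome I it was 1 of 5 beside 24.0%, so the shares on IV and I were not above the background there. The other chromosomes held 1 to 4 members each, with 1 of 1 on II beside 20.2%, 1 of 3 on III beside 25.6% and 2 of 4 on X beside 22.4%. The difference between chromosomes was not tested.

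Tandem clusters, defined as neighbouring ugt genes at most 10 kb apart, numbered 11 and held 37 of the 67 genes. Inside clusters 15 of 37 members had a thresholded summit (40.5%), and outside 8 of 30 (26.7%), with overlapping 95% intervals of 24.8 to 57.9% and 12.3 to 45.9%. The direction turned when only summits above the median signal of the list were counted, with 6 of 37 inside and 6 of 30 outside, and without replicate 2 the counts were 12 of 37 and 9 of 30. The number of thresholded members differed between clusters. Whether it differed more than a share of 40.5% in clusters of these sizes would give was not tested. In 8 clusters at least 1 member was thresholded, and only the pair of ugt-19 and ugt-20 had every member thresholded. In 3 clusters, those of ugt-43 and ugt-44, ugt-47 and ugt-17, and ugt-55 and ugt-56, no member was, and all 6 of these genes had candidates only.

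The largest cluster, of 8 genes, spans 24235 bp of chromosome V (chrV:4887165-4911399, WBcel235) from ugt-12 to ugt-13. It had separate thresholded summits before ugt-12, between ugt-11 and ugt-9, before ugt-8 and before ugt-13, and 5 of its 8 genes were thresholded. ugt-67 and ugt-14 had weaker candidates, of 36.5 and 53.15, and ugt-10 had none. The highest and the lowest of these 4 thresholded summits were 414.5 at ugt-13 and 144.3 at ugt-8.

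In the cluster of 6 genes from ugt-40 to ugt-36, ugt-39 and ugt-41 were thresholded, ugt-40, ugt-37 and ugt-36 had candidates and ugt-38 had none. In the 4-gene cluster from ugt-5 to ugt-3, ugt-4 was thresholded, ugt-5 had a candidate and ugt-6 and ugt-3 had none. In the 3-gene cluster from ugt-18 to ugt-15, ugt-18 and ugt-16 were thresholded and ugt-15 had a candidate of 50.16. Of clustered genes that follow another ugt gene on the same strand, 6 of 18 were thresholded, beside 9 of the 19 other clustered genes, with 95% intervals of 13.3 to 59.0% and 24.4 to 71.1% that overlap widely.

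**Figure D3:**
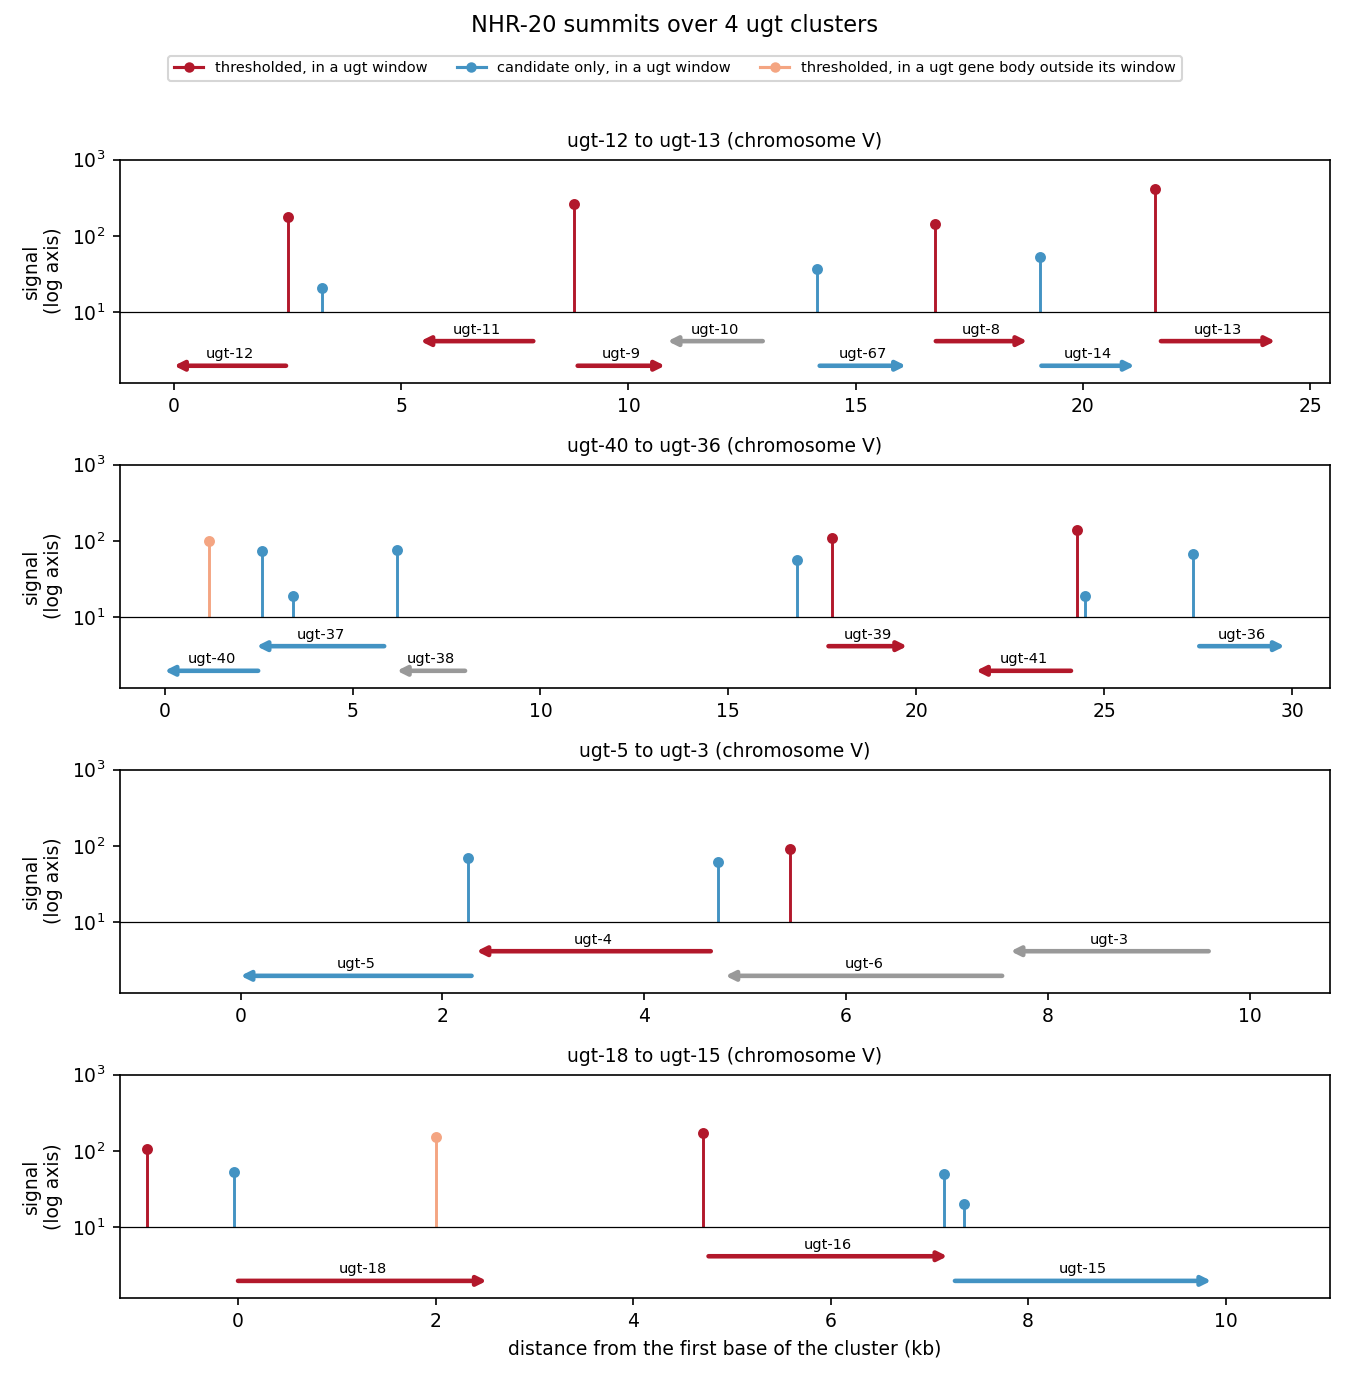
Signal (y axis, log, authors' units) of summits over 4 tandem clusters of chromosome V against the distance from the first base of each cluster in kb. Only summits in ugt promoter windows or ugt gene bodies are drawn, so other thresholded summits inside a cluster do not appear. Arrows are ugt genes in their direction of transcription, red for genes with a thresholded summit, blue for candidate only and grey for no candidate, and genes outside the family are not drawn. In the top panel 4 separate red stems, 144.3 to 414.5 high, stand at the starts of ugt-12, ugt-9, ugt-8 and ugt-13.

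The space upstream of a gene limits how much of the window is free of other genes. With an upstream neighbour less than 500 bp away, 4 of 20 ugt genes were thresholded, beside 22.2% of all genes with such a gap. At gaps from 500 bp to under 1000 bp it was 11 of 22 beside 25.1%, and at 1000 bp or more 8 of 25 (32.0%) beside 17.9%. The share of ugt genes was thus near the background where the gap was short and above it at the longer gaps, with 95% intervals of 5.73 to 43.7%, 28.2 to 71.8% and 14.9 to 53.5%. Where the upstream neighbour lay on the same strand 15 of 46 ugt genes were thresholded (32.6%) beside 15.2% of all such genes, and where it was divergent 8 of 21 (38.1%) beside 27.0%.

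Some of the most alike enzymes differed widely in the signal at their genes. The encoded proteins, of 483 to 558 residues, share a median identity of 30.7% over 2211 pairs, and 21 pairs of genes are each other's closest relative. In 4 of these pairs both genes were thresholded, in 8 only 1 was and in 9 neither was. The same counts were not made over unrelated pairs of members, so these counts do not set close relatives apart. The most alike pair, ugt-38 and ugt-39 with 90.1% identity, had no candidate at ugt-38 and a signal of 107.7 at ugt-39. ugt-41 and ugt-42, with 85.4% identity, had signals of 139.1 and 17.51. ugt-28 had a candidate of 73.67, and ugt-29, with 83.6% identity to it, had none.

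In ugt-19 and ugt-20, neighbours with 78.8% identity, both were thresholded but the signals were 101.0 and 696.9. ugt-61 and ugt-62, on chromosomes V and III with 75.5% identity, had 207.6 and 107.3. ugt-63 and ugt-64 had 185.4 and 385.4 at 62.1% identity, and ugt-49 and ugt-50 had 266.9 and 231.2 at 38.6%. These pairs, other than ugt-19 and ugt-20, are not neighbours.

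**Figure D4:**
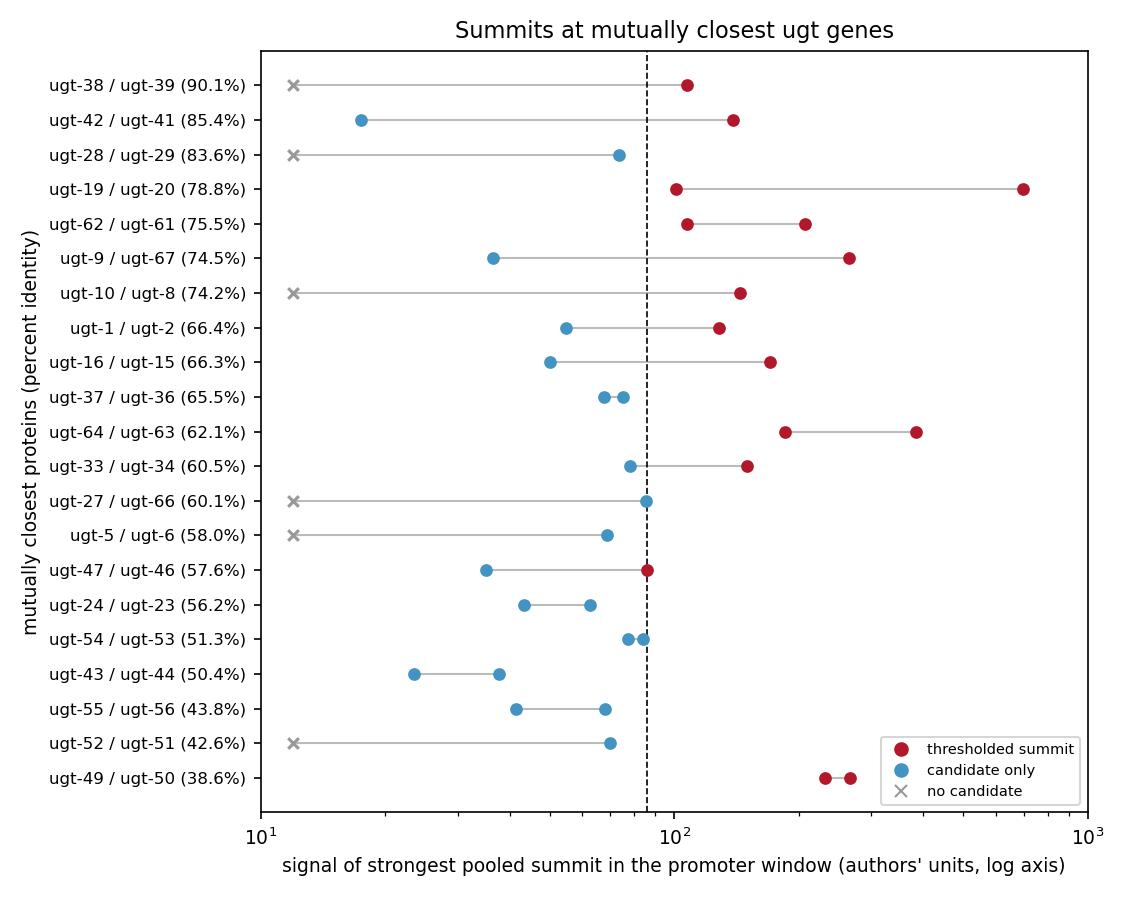
Signal of the strongest pooled summit in the promoter window (x axis, log, authors' units) for the 21 pairs of ugt genes whose proteins are each other's closest relative, ordered by percent identity from 90.1 at the top to 38.6 at the bottom. Crosses mark genes with no candidate and carry no value, and the dashed line marks the lowest thresholded signal. In 4 pairs both points lie right of the line, and in 8 pairs only 1 does.

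Short binding sites were searched on both strands in the 201 bp around each summit. TGATAA, the site of GATA factors that act in the intestine, occurred in 12 of 22 ugt windows, 54.5%, beside 21.3% of all thresholded promoter summits. ugt-58 and ugt-46 had 3 copies each. The same string occurred in the 201 bp before the outermost start of 55.2% of ugt genes, beside 22.8% of all genes, 35.1% of cyp genes and 24.5% of gst genes. Within the family, 39.1% of thresholded members, 64.5% of candidate-only members and 61.5% of members without a candidate held it there. The median share of G and C was 36.1% in ugt summit windows beside 40.3% in promoter summit windows. In the 201 bp before the start it was 32.3% for ugt genes beside 33.3% for all genes. The part of base composition in these shares was not tested.

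GTCAT and ATCAT, cores of the site of SKN-1, the worm relative of Nrf factors and a regulator of detoxification genes, each occurred in 15 ugt summit windows, 68.2%. The shares over promoter summits were 28.8% and 36.5%. ATCAT overlaps TGATAA in some contexts, and outside any TGATAA it occurred in 11 ugt windows beside 33.1% of promoter summits. In the 201 bp before the start, GTCAT occurred in 41.8% of ugt genes, 26.1% of all genes, 20.3% of cyp genes and 24 of 49 gst genes, a share above that of the ugt genes. AGGTCA, a core site of many nuclear receptors, occurred in 0 ugt summit windows beside 7.65% of promoter summits, and these letters being absent says nothing of the receptor. CACGTG, the E-box, occurred in 1 ugt window, 4.55% beside 9.61%.

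The string CTGCGTC was chosen after the ugt sequences had been read, so its count in them is a description only. It occurred in 7 of 22 ugt summit windows, those of ugt-20, ugt-64, ugt-58, ugt-49, ugt-61, ugt-26 and ugt-19, which is 31.8% beside 14.7% of promoter summits. In the 201 bp before the start it occurred in 4.48% of ugt genes and 3.25% of all genes. The summits of ugt-20, ugt-64, ugt-58 and ugt-49, which hold it, were among the 5 strongest of the family. The summit of ugt-13, which is also among these 5, had none. Those of ugt-61, ugt-26 and ugt-19, which hold it too, were weaker, with signals of 207.6, 124.8 and 101.0. A link between the string and signal was not tested.

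Other detoxification families were set beside the ugt genes. Thresholded summits were found at 29 of 74 cyp genes, which encode cytochromes P450 (39.2%, 95% interval 28.0 to 51.2%), and at 18 of 49 gst genes, which encode glutathione S-transferases (36.7%, 23.4 to 51.7%). They were found at 14 of 30 dhs genes for short-chain dehydrogenases (46.7%, 28.3 to 65.7%). Among genes for efflux pumps 3 of 8 mrp genes (37.5%, 8.52 to 75.5%) and 2 of 14 pgp genes (14.3%, 1.78 to 42.8%) had one. The share over all genes was 20.6%, so that of pgp genes was below it and those of the other families above it. The intervals of these families overlap that of the ugt genes, and the differences were not tested. Candidates were present at 74.3% of cyp, 75.5% of gst, 76.7% of dhs, 62.5% of mrp and 64.3% of pgp genes. This is beside 80.6% of ugt genes and 47.2% of all genes.

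**Figure D5:**
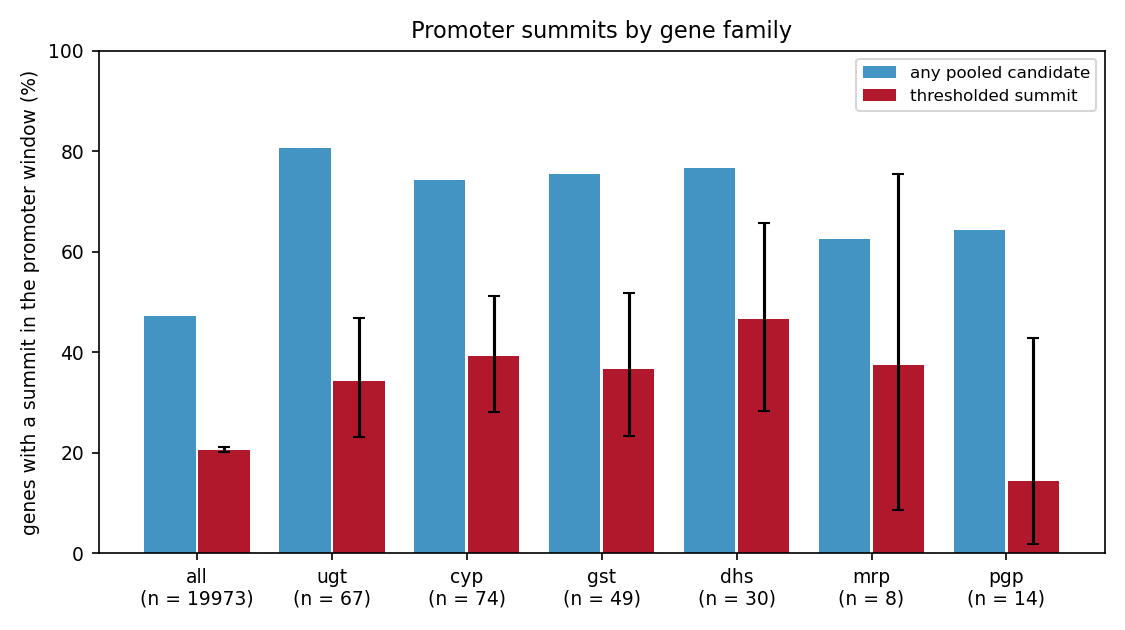
Share of genes (y axis, %) with any pooled candidate (blue) and with a thresholded summit (red) in the promoter window, for all 19973 protein-coding genes and 6 gene families. Error bars are exact 95% binomial intervals on the thresholded share. The red bar of the ugt genes is at 34.3% beside 20.6% for all genes, and its interval overlaps those of the other 5 families.

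Genes for nucleotide sugars and genes for regulators were looked up from a list of pathway genes. Of 6 listed genes of nucleotide-sugar metabolism or transport, 3 had a thresholded summit and 5 a candidate, beside 20.6% and 47.2% of all genes. Not all of these genes serve to make UDP-glucuronic acid. sqv-4, the UDP-glucose dehydrogenase that makes UDP-glucuronic acid, had a signal of 126.3. The epimerase gene gale-1 had 123.0 and rml-1 had 151.0. D1005.2 had a candidate of 76.89, sqv-1 of 57.54, and sqv-7, which encodes a nucleotide-sugar transporter, had none. The sqv-1 candidate also lies in the window of D2096.5.

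Of 17 regulators of detoxification or of the intestine, 10 had a thresholded summit and 16 a candidate, beside the same 20.6% and 47.2%. The strongest was wdr-23, which encodes a repressor of SKN-1, with 954.6, and skn-1 itself had 380.1. Among nuclear receptor genes nhr-49 had 593.2, nhr-48 had 458.1, nhr-86 had 118.6 and nhr-8 had 89.88. The receptor genes hizr-1, nhr-176 and daf-12 had only candidates below the threshold, of 57.54, 41.88 and 33.47. The hypoxia factor gene hif-1 had 382.6, the FOXO gene daf-16 had 315.4, aha-1 had 234.6 and the intestinal GATA factor gene elt-2 had 109.6. Only candidates below the threshold were found at pha-4 (64.55), elt-7 (41.75) and mdt-15 (22.87). The aha-1 summit also lies in the window of C25A1.15, and the elt-7 candidate in that of C18G1.9. The mdt-15 candidate also lies in the windows of R12B2.13 and R12B2.6. ahr-1, the aryl hydrocarbon receptor gene, had no candidate, and neither had the sulfotransferase gene ssu-1. wdr-23 exceeded every ugt gene in signal, and the other regulators fell below ugt-20.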

How the data were processed

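The members, gene lists and motifs were chosen with earlier results of these data known. Per the labels, the authors deposited lists of ChIP-seq regions in narrowPeak form on ce10 and ce11, of which the ce11 lists were used. The signal of each region and its −log10 q-value were deposited by the authors, and per the deposited notes 1 control alignment served both replicates. The third deposited column used gives the summit as an offset from the region start. For the aligner, caller and rate threshold no name or value is given in the sources used here. Read depth is unknown.

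Gene models came from Ensembl release 115 and symbols from RefSeq, both on WBcel235 (ce11), and 19965 of 19973 protein-coding genes had a RefSeq symbol. The listed pathway gene K08E3.5 was not matched by symbol. The promoter window ran from 1000 bp before to 300 bp past each protein-coding start. A summit was matched to a replicate region within 200 bp. Regions were ranked by signal within each list. Proteins translated from the annotation were aligned globally for identity. Genes were named by a rule covering every thresholded member, the 10 strongest candidate-only members, the 5 on each side of the threshold and all members without a candidate; genes of the pathway list and genes sharing a summit were added. Weaker candidates named in pairs or clusters fell outside that rule and were chosen after their values were seen. The assignment was checked on simulated summits. Python 3.11.15, pandas 2.3.3, numpy 2.4.6, scipy 1.17.1, Biopython 1.88 and matplotlib 3.10.9 were used. Alternatives changed the window, the starts, the unit, the threshold and the libraries.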

Additional observations from a re-analysis of the deposited data

How the results depend on the processing

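The count of 23 thresholded ugt genes stayed between 19 and 24 when the window, the starts or the overlap rule changed. A window from 500 bp upstream to 100 bp downstream gave 19 (28.4% beside 16.3% of all genes) and lost ugt-4, ugt-11, ugt-18 and ugt-49. A window reaching 2000 bp upstream gave 24, or 35.8% beside 26.1%. Use of the outermost start only lost ugt-64, which left 32.8% beside 19.2% of all genes. Assignment to the nearest start only lost ugt-11, which left 32.8% beside 16.4%. Restricting the list to summits above its median signal left 12 members, 17.9% beside 12.3% of all genes, which follows from the smaller list.

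Leaving out a replicate gave 21 to 25 members. Without replicate 2 there were 21, of which 19 were shared with the 23, with ugt-4, ugt-18, ugt-39 and ugt-46 lost and ugt-33 and ugt-54 gained. Without replicate 1 there were 25, with ugt-40 and ugt-66 gained. Members with a candidate numbered 50 to 55 over all alternatives, and 53 to 55 with a replicate left out. Above the median signal, 6 of the 37 clustered and 6 of the 30 other members were counted, in place of 15 and 8, so the direction between them turned. Of 19 alternative values 18 kept within 1.5 times the value reported or within its spread. No paired analysis was possible because there is 1 group. Depth was not known, so an absent candidate does not show an absent site.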
